A study of Homo sapiens with 6 samples.

Results

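Diacylglycerol kinases phosphorylate the lipid second messenger diacylglycerol and so turn it into phosphatidic acid. Of the 10 human diacylglycerol kinase genes considered, 8 had a library well: DGKA, DGKB, DGKD, DGKE, DGKG, DGKI, DGKQ and DGKZ. They were found by locus identifier among the 939 library wells of an siRNA screen, 1 well per gene and sample. DGKH and DGKK were not analysed here. The file names these 8 genes by their current symbols.

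As background, diacylglycerol is released from membrane phosphoinositides by phospholipase C and recruits proteins with a C1 domain, among them most protein kinases C, protein kinases D and RAS activators of the RASGRP family. Its conversion to phosphatidic acid ends that signal and starts another, since phosphatidic acid binds proteins such as MTOR and feeds phospholipid synthesis. The family is sorted by regulatory domains. Type I members (DGKA, DGKB, DGKG) bind calcium through EF hands, type II (DGKD here) has a pleckstrin homology domain, type III (DGKE) has neither, type IV (DGKI, DGKZ) has ankyrin repeats, and type V (DGKQ) has an additional C1 domain.

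The cells were SUM149PT, a human cell line from triple-negative inflammatory breast cancer. All 6 samples were reverse-transfected with siRNA at 45 nM, with 750 cells per condition, and stood for 48 hours. The 3 EPA samples then had eicosapentaenoic acid (EPA), a polyunsaturated fatty acid, at 50 µM for 72 hours, and the 3 untreated samples had none. The readout was the fluorescence of reduced resazurin, a measure of metabolically active cells, so fewer cells and less reduction per cell cannot be told apart. No RNA or protein was measured, so neither the cell identity nor the loss of each target was checked, and the sources used here do not say whether a well holds 1 siRNA or a pool. Nor do they say whether samples were separate cultures, so the spread behind each p-value may be no more than technical. The 3 untreated columns are called untreated 1 to 3 here and the EPA columns EPA 4 to 6.

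All 8 wells lay on plate 1, none of them in its outermost rows or columns, though DGKG lay next to an outermost column. DGKA, DGKB, DGKD, DGKE and DGKG lay in plate row 6, at columns 15, 17, 19, 21 and 23. DGKI, DGKQ and DGKZ lay in row 8, at columns 5, 7 and 9. On this plate blank wells read 3804 ± 65.8 untreated and 3891 ± 60.9 with EPA, and OTP3, the negative control siRNA, read 49678 ± 1584 and 26996 ± 4315 (SD, n = 3 each). The median library well of the plate read 24112 ± 202 untreated and 15046 ± 1404 with EPA. With EPA, row 8 read lower than row 6. The median of the 15 other library wells in row 6 went from 20676 ± 2711 to 14461 ± 874, or 69.9% ± 5.83 (SE) left, and that of the 17 other wells in row 8 from 17960 ± 3202 to 6638 ± 631, or 37.0% ± 4.31 left. Cells alone, 2 wells per row, kept 51.5% ± 8.05 in row 6 and 44.6% ± 7.10 in row 8. With EPA they read 25230 ± 6265 in row 6 and 22138.5 ± 5918 in row 8. OTP3, 2 wells per row, then read 24655 ± 3969 in row 5 and 21072 ± 4770 in row 7. Position therefore moves with membership, each gene has a single position, and the part of position in a gene's level was not tested beyond the position-corrected values given beside the results. Those corrections subtract levels of the library wells themselves. Position and the effects of the other siRNAs in a row cannot be told apart in them.

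Without EPA the wells fell into low, middle and high levels, and DGKG lay above the other high wells. DGKZ, DGKQ and DGKE gave the lowest untreated signal, with means of 7899, 9966 and 10420 units. DGKA (18660) and DGKI (21775) came next, and DGKB (27529), DGKD (30557) and DGKG (39682) were highest, 5.02 times from lowest to highest. The order of the means was the same with EPA, from DGKZ at 4645 to DGKG at 24942, a span of 5.37 times. Among neighbours in the untreated order, the 3 values overlapped between DGKZ and DGKQ, DGKQ and DGKE, DGKA and DGKI, and DGKB and DGKD, but not between DGKE and DGKA, DGKI and DGKB, or DGKD and DGKG. With EPA, DGKI and DGKB was the one pair of neighbours whose values did not overlap, so the low and middle levels ran into each other there.

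The first question was how each siRNA stood against the other siRNAs without EPA. Values were set on a log2 scale against the median library well of the same plate and sample, and limma's test was run over all 939 wells with Benjamini-Hochberg adjustment at 0.05. The spread of each gene was estimated from both groups together, so its untreated and EPA levels carry the same SE. Of the 8 members, 4 were lower (DGKZ, DGKQ, DGKE, DGKA) and 2 were higher (DGKG, DGKD), in a screen where 35.6% of all library wells were called lower and 33.9% higher. With 8 genes these counts lie near the background. The median of the members was -0.27, beside -0.01 over all wells.

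With EPA, 5 members were lower (DGKZ, DGKQ, DGKE, DGKA, DGKI) and 3 were higher (DGKG, DGKD, DGKB), so all 8 passed the threshold. Among all library wells 37% were called lower and 36.4% higher with EPA. The median of the members was -0.65, beside 0.03 over all wells. Both medians moved with the position correction. After median polish, which removes row and column medians, the median member stood at -0.09 untreated and -0.15 with EPA, and against the other wells of its own plate row at 0.09 and 0.13. After median polish 3 members were lower (DGKZ, DGKQ, DGKE) and 2 higher (DGKG, DGKI) untreated, where 27.6% and 26.5% of all wells were, so DGKA and DGKD were no longer called and DGKI was. With EPA 4 were then lower (DGKZ, DGKQ, DGKE, DGKA) and 3 higher (DGKG, DGKD, DGKB), where 30.4% and 30.6% of all wells were. Against the plate row 3 were lower (DGKZ, DGKQ, DGKE) and 3 higher (DGKG, DGKD, DGKI) untreated, where 31.7% and 30.5% of all wells were. With EPA 3 were lower against the row (DGKZ, DGKE, DGKA) and 4 higher (DGKG, DGKD, DGKB, DGKI), where 33.7% and 33.4% of all wells were.

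DGKZ (locus identifier 8525), a type IV kinase known as a brake on diacylglycerol signalling to RAS in lymphocytes, gave the lowest signal of the family. Its well read 10808, 5031 and 7858 untreated and 4428, 4402 and 5106 with EPA. Untreated 2 lay inside the range of the EPA samples, so the groups overlapped, and the EPA values were 1.19 times the blank wells on average. Relative to the library it stood at -1.68 untreated (SE 0.177, adjusted p = 1.70e-05) and -1.69 with EPA (SE 0.177, adjusted p = 1.07e-05), which is rank 34 from the lowest of all library wells without EPA and rank 12 with it. In its plate row 2 of the 20 library wells were lower in each group. After median polish it was still called lower in both groups, at -0.86 (adjusted p = 3.72e-05) and -0.45 (adjusted p = 0.00694). Against its own row it was at -1.13 and -0.56, again called in both (adjusted p = 0.000109 and 0.0102).

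DGKI (9162), the other type IV kinase, which has the same domain plan, read 17319, 22763 and 25242 untreated and 11001, 9152 and 10189 with EPA. All 3 EPA values lay below all 3 untreated values, and none of its values overlapped with those of DGKZ in the same group. Against the library it was at -0.16 untreated (adjusted p = 0.258; 95% interval -0.44 to 0.11) and at -0.57 with EPA (SE 0.125, adjusted p = 0.00186). The sign of these values turned on correction for position, which also takes out the level of the other siRNAs in its row. After median polish DGKI was called higher untreated, at 0.58 (adjusted p = 0.00386), and stood at 0.11 with EPA (adjusted p = 0.571). Against its row it was called higher in both groups, at 0.86 and 0.64 (adjusted p = 0.000779 and 0.00458).

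DGKQ (1609), the type V kinase, gave closely spaced untreated values of 10024, 10412 and 9461. With EPA it read 5005, 4641 and 6493, all below the untreated values and 1.38 times the blank wells on average. Relative to the library it was at -1.28 untreated (SE 0.124, adjusted p = 9.61e-06) and -1.495 with EPA (SE 0.124, adjusted p = 2.25e-06). After median polish these were -0.55 and -0.40, still called (adjusted p = 0.00333 and 0.0209). Against its row it was called lower untreated, at -0.73 (adjusted p = 0.00106), while with EPA it stood at -0.31 and did not pass (adjusted p = 0.0756). In row 8, 6 of the 20 library wells read lower without EPA and 5 with it.

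DGKE (8526), the type III kinase, prefers diacylglycerol that carries arachidonate and serves the resynthesis of phosphatidylinositol. Its well read 12062, 8397 and 10801 untreated and 8474, 6260 and 7925 with EPA, so the highest EPA value lay above the lowest untreated value. It was the lowest of the 20 library wells in row 6 without EPA, and 2 of them were lower with EPA. Relative to the library it stood at -1.23 untreated (SE 0.129, adjusted p = 1.63e-05) and -1.002 with EPA (SE 0.129, adjusted p = 4.88e-05). Correction for position changed it less than DGKZ and DGKQ. After median polish it was at -0.82 and -1.05 (adjusted p = 3.98e-05 and 2.57e-06), and against its row at -1.06 in both groups (adjusted p = 1.03e-05 and 7.05e-06).

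The values of the 3 type I kinases did not overlap without EPA, while with EPA all 3 values of DGKG lay inside the range of DGKB and those of DGKA lay below both. DGKA (1606), which limits diacylglycerol signals in T cells, read 16485, 19785 and 19711 untreated and 9255, 6958 and 11621 with EPA, with no overlap. DGKA was called lower with EPA, at -0.72 (SE 0.147, adjusted p = 0.00114), and stayed so after median polish (-0.61, adjusted p = 0.005) and against its row (-0.79, adjusted p = 0.00117). Without EPA it was at -0.37 (SE 0.147, adjusted p = 0.0425), a call that was lost after median polish (-0.28, adjusted p = 0.162) and in 5 of the other 8 processing alternatives. It was also lost with any 1 of the untreated samples left out, at -0.29 without untreated 1, -0.41 without untreated 2 and -0.42 without untreated 3 (adjusted p = 0.191, 0.0795 and 0.0741).

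DGKB (1607), a type I kinase best known from brain, read 26164, 30192 and 26230 untreated and 34197, 14124 and 20230 with EPA. EPA 4 read above every untreated sample and EPA 5 and EPA 6 below, the widest spread of the family (22850 ± 10290, SD, n = 3). Cells alone and OTP3 on plate 1 were also highest in EPA 4, at 33386 and 31618, and lowest in EPA 5, at 23710 and 23074. Whether the spread of DGKB follows theirs was not tested. DGKB was at 0.19 untreated (adjusted p = 0.328) and was called higher with EPA, at 0.51 (SE 0.165, adjusted p = 0.0169). This SE is shared by both groups, so it also rests on the closer untreated values. Those were 0.12, 0.31 and 0.13 relative to the library, against 1.04, -0.01 and 0.51 with EPA. The call with EPA was lost without EPA 4 (0.25, adjusted p = 0.156) and without EPA 6 (0.51, adjusted p = 0.0664). With EPA it was at 0.77 after median polish (adjusted p = 0.00245) and at 0.57 against its row (adjusted p = 0.0157).

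DGKG (1608), the third type I kinase, gave the highest signal of the family, with 35536, 42770 and 40741 untreated and 28780, 19455 and 26592 with EPA. It was called higher in both groups, by 0.71 in each (SE 0.106, adjusted p = 0.000178 untreated and 0.000139 with EPA). In row 6, 19 of the 20 library wells read lower than DGKG without EPA and 17 with it. After median polish the values were 0.44 and 0.46, both called (adjusted p = 0.0103 and 0.00689), and against its row 0.92 and 0.77 (adjusted p = 0.000123 and 0.000386). Even so, its well held 79.8% ± 6.50 of the OTP3 signal without EPA and 92.2% ± 8.46 with it (SD, n = 3), so "higher" is relative to the library.

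DGKD (8527), the type II kinase, which is linked to turnover of the EGF receptor, read 32498, 31556 and 27617 untreated and 24085, 26315 and 20832 with EPA, with no overlap. It was called higher in both groups, at 0.34 (SE 0.103, adjusted p = 0.0137) and 0.66 (SE 0.103, adjusted p = 0.000201). After median polish it stood at 0.10 untreated and no longer passed (adjusted p = 0.458), while with EPA it was at 0.41 (adjusted p = 0.00313). Against its row it was called higher in both groups, at 0.54 (adjusted p = 0.00111) and 0.71 (adjusted p = 0.000123), so the position corrections differed on the untreated call. The untreated call was also lost without untreated 1 (0.29, adjusted p = 0.0759) and without untreated 2 (0.32, adjusted p = 0.0708).

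Set against OTP3 in place of the library, all 8 members were lower without EPA, in a screen where 91.7% of library wells then were and 0.852% were higher. With EPA 5 were lower and 0 higher (65.6% and 13.7% of all wells). DGKG, DGKD and DGKB were at 0.01, -0.04 and -0.19 there (limma adjusted p = 0.907, 0.761 and 0.238). At an unadjusted p under 0.05 the counts against OTP3 were 8 and 0 without EPA and 5 and 0 with it.

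The comparison the screen was made for is whether loss of a gene adds to the effect of EPA. In raw fluorescence all 3 EPA values lay below all 3 untreated values for 5 of the 8 genes (DGKA, DGKD, DGKG, DGKI, DGKQ; two-sided exact permutation p = 0.1, which 3 against 3 samples cannot go below), as for 61.7% of all library wells, while 0.213% lay wholly above. The share of the untreated signal left with EPA ran from 46.4% ± 5.56 (SE) for DGKI, 49.7% ± 7.77 for DGKA and 54.0% ± 5.88 for DGKQ to 77.7% ± 6.45 for DGKD and 83.0% ± 22.0 for DGKB. DGKZ kept 58.8% ± 12.8, DGKG 62.9% ± 7.87 and DGKE 72.5% ± 9.84. Beside these, OTP3 on the plate kept 54.3% ± 5.11, cells alone 55.2% ± 5.56 and the median library well 62.4% ± 3.38.

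The blank level enters these shares most where the signal is low. With the blank wells subtracted, DGKZ kept 18.4% ± 8.79, DGKQ 24.2% ± 8.75, DGKI 34.6% ± 5.49 and DGKA 36.3% ± 9.31, and the median of the other wells in row 8 kept 19.4% ± 3.74. DGKE then kept 55.3% ± 13.3, DGKG 58.7% ± 8.63, DGKD 74.2% ± 7.30 and DGKB 79.9% ± 25.5, beside 62.6% ± 6.50 for the other wells in row 6. The 3 members of row 8 were thus among the 4 with the smallest share left, in a row where the other siRNAs also kept less. With the blanks subtracted, OTP3 on the plate kept 50.4% ± 5.56, cells alone 51.4% ± 6.02 and the median library well 54.9% ± 4.13.

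Relative to the library, 0 of the 8 members were lower with EPA than without and 0 were higher in limma's test, where 15.2% of all library wells were called lower and 29% higher. At an unadjusted p under 0.05, 1 member was lower (DGKI) and 0 were higher, and limma without its trend and robust options also called 0 in each direction. The median member stood at -0.01, beside 0.20 over all wells. DGKI had the lowest value, -0.41 (SE 0.177, adjusted p = 0.0854, 95% interval -0.80 to -0.01), and DGKB the highest, 0.32 (SE 0.233, adjusted p = 0.281, interval -0.20 to 0.84). The groups did not overlap for 2 members on this scale: all 3 EPA values of DGKI lay below its untreated values, and all 3 of DGKD above. Over all wells 18.8% lay wholly below and 36% wholly above. Leaving out 1 sample made a call for 3 genes: DGKI was lower without untreated 1 (-0.57, adjusted p = 0.0308), DGKA lower without EPA 6 (-0.57, adjusted p = 0.0461) and DGKB higher without EPA 5 (0.59, adjusted p = 0.038). DGKI was also called lower when the differences were centred on the median siRNA of the plate (-0.55, adjusted p = 0.0358).

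The 95% intervals, not adjusted for many tests, give the range of differences that these samples allow. DGKG was at 0.00 with an interval of -0.34 to 0.33, and DGKZ at -0.02 with one of -0.57 to 0.54. DGKQ was at -0.22 (-0.61 to 0.17), DGKA at -0.35 (-0.81 to 0.11), DGKE at 0.22 (-0.18 to 0.63) and DGKD at 0.32 (-0.01 to 0.64). None of the 8 intervals reached a loss of 1 log2 unit on this scale, but after blank subtraction those of DGKA (to -1.44), DGKI (to -1.19), DGKQ (to -2.42) and DGKZ (to -2.79) did.

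The scale mattered for 2 genes near the blank level. After blank subtraction DGKQ was called lower with EPA, at -1.36 (SE 0.472, adjusted p = 0.0427), and DGKZ stood at -1.35 with an interval of -2.79 to 0.10 (adjusted p = 0.115). On that scale 16.5% of all wells were called lower and 25.8% higher. With median polish added these became -0.43 (adjusted p = 0.527) and -0.33 (adjusted p = 0.671), and against their plate row, without blank subtraction, 0.41 (adjusted p = 0.139) and 0.57 (adjusted p = 0.0781). Centred on OTP3, DGKB, DGKD and DGKE were called higher with EPA, by 0.65, 0.65 and 0.55, where 57.6% of all wells were, and 0 were called lower, where 7.24% were (0 lower at an unadjusted p under 0.05).

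Other genes of the pathway were taken from lists by role, with counts of wells past limma's threshold for EPA minus untreated. Over all library wells 15.2% passed downwards and 29% upwards, and median polish made these shares 14.8% and 16.3%. With 2 to 10 wells in a list, no list is read as standing apart from them. Among C1-domain targets of diacylglycerol, 10 of 14 listed genes had a well, and 2 were lower and 4 higher with EPA, beside 15.2% and 29% of all wells (2 and 1 after median polish). Their median was 0.03, beside 0.20 over all wells. The protein kinases PRKD2 (-0.95, SE 0.202, adjusted p = 0.00472) and PRKCQ (-0.68, SE 0.146, adjusted p = 0.00506) were lower, and both passed after median polish. The PRKD2 well, on plate 2, read 5030 ± 457 with EPA (SD, n = 3). Blank wells of plate 1 then read 3891, and values after blank subtraction are not given for these lists. Of the atypical protein kinases C, which do not respond to diacylglycerol, PRKCI was higher (1.06, adjusted p = 0.00718), also after median polish, and PRKCZ stood at 0.14 (adjusted p = 0.457).

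Of other lipid kinases with the same catalytic fold, 4 of 5 listed genes had a well, and 0 were lower (0 at an unadjusted p under 0.05) and 2 higher, beside 15.2% and 29% of all wells, with a median of 0.42. After median polish 1 was higher. The sphingosine kinase SPHK1 was at 0.89 (adjusted p = 0.0185) and the ceramide kinase CERK, in an edge well, at 0.46 (adjusted p = 0.0187). CERK did not pass after median polish (0.15, adjusted p = 0.498). In raw fluorescence SPHK1 read 8377 ± 2041 untreated and 9166 ± 4021 with EPA (SD, n = 3). Of genes listed as phosphoinositide kinases upstream of phospholipase C, 9 of 11 had a well, with a median of 0.30. Among them 1 was lower, PI4K2A at -1.85 (limma adjusted p = 0.000169), and 4 were higher, beside 15.2% and 29% of all wells. Of these wells 4 were edge wells. The PI4K2A well, on plate 2, read 4211 ± 210 with EPA (SD, n = 3), near the 3891 of the blank wells of plate 1. After median polish 1 was lower, again PI4K2A, and 1 higher, PIP5KL1 (0.63 before and 0.65 after, adjusted p = 0.0064 and 0.0124). The other 3, PIP4K2A, PIP5K1A and PI4KA, lay in edge wells and went from 0.76, 0.80 and 0.63 to 0.30, 0.25 and 0.31 (adjusted p = 0.144, 0.378 and 0.158).

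Of choline, ethanolamine and glycerol kinases of phospholipid synthesis, all 6 listed genes had a well, with 1 lower and 1 higher, beside 15.2% and 29% of all wells, and a median of -0.02. After median polish 0 were called in either direction (0 of either at an unadjusted p under 0.05). These were GK2 at -0.35 (adjusted p = 0.0498) and CHKB at 0.61 (adjusted p = 0.00345), both in edge wells. Among proteins reported to bind phosphatidic acid, 6 of 9 genes had a well (7 wells), with 1 lower, MTOR at -1.54 (adjusted p = 0.000549), and 4 higher, beside 15.2% and 29% of all wells, with a median of 0.68. PIP5K1A, which is on this list too, was among the higher ones. After median polish MTOR was again the 1 lower, while 3 were higher, 1 of them a well of AKT1 that had not been called before. That well, on plate 1, was at 0.52 (limma adjusted p = 0.0468). The other AKT1 well, on plate 3, was at 0.05 after median polish and did not pass (adjusted p = 0.889). The MTOR well lay in the same plate row as DGKI, DGKQ and DGKZ. It read 5337 ± 653 with EPA (SD, n = 3), beside 3891 for the blank wells of that plate. Of the receptors of lysophosphatidic acid, 3 of 6 had a well, with 1 lower, LPAR1 at -1.62 (adjusted p = 0.000549), and 2 higher, among them LPAR3 at 0.80 (adjusted p = 0.00296), beside 15.2% and 29% of all wells. The median was 0.80, and the counts were the same after median polish. In raw fluorescence LPAR3 read 6959 ± 394 untreated and 6943 ± 811 with EPA (SD, n = 3), so "higher" is relative to the library.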

How the data were processed

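Per the file headers, the deposited table holds the raw fluorescence intensity of each well in each sample. It was read on a plate reader, per the labels' protocols. Whether the authors normalized or subtracted blanks is not given in the sources used here. Genes were matched by locus identifier to RefSeq names of assembly GRCh38.p14 (933 of 939 library wells). The 21 wells without siRNA and the control wells entered no fit.

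Each well was divided by the median library well of its plate and sample, and log2 was taken without pseudocount or low-value filter. For log2 values after blank subtraction, the mean blank of the plate and sample was taken off first. Values under 3 SDs of those blank wells were then raised to that level. Group means were fitted with limma 3.58.1 (R 4.3.3; trend and robust options) to all 939 wells and 6 samples. Each group's mean was tested against 0, and EPA against untreated, two-sided, with Benjamini-Hochberg adjustment at 0.05. The fit was tested on simulated data. Shares left with EPA are ratios of means with a propagated SE. With 3 samples per group and 1 well per gene, the precision is low near the blank level.

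The members and gene lists were chosen with earlier results of these data known. Every member is named, and in each list the 2 wells with the largest moderated statistic for EPA minus untreated. Named besides, for their calls before or after median polish, were PIP5KL1, PIP5K1A and PI4KA among the genes listed as phosphoinositide kinases. AKT1 was so named among the proteins that bind phosphatidic acid. Centring on the plate row was added after seeing the data. The siRNA sequences were not used here.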

Additional observations from a re-analysis of the deposited data

How the results depend on the processing

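No paired analysis was possible because the deposited columns are numbered 1 to 6 through both groups and could not be tied to the replicate numbers of the labels. The fit with that block was therefore not run. The lower calls of DGKE (9 of 9 alternatives in each group) and DGKZ (8 of 8, as the filter on low signal leaves it out) kept their direction and side of the threshold, also with each replicate left out. Each value is limited by 1 well per gene and by the blank level for DGKZ and DGKQ.

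Centred on OTP3, 8 members were lower and 0 higher untreated, 0 were higher with EPA, and 3 were higher with EPA than untreated. DGKB then stood at -0.84 untreated and -0.19 with EPA, DGKD at -0.69 and -0.0446, and DGKG at -0.31 untreated. For EPA minus untreated DGKG was at 0.33, DGKQ at 0.11 and DGKZ at 0.31. OTP3 lies above the median library well, which lowers the level of every member set against it.

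With blank subtraction 1 member was lower with EPA than untreated, and DGKG was at 0.0801 for EPA minus untreated. Centring the difference on the median siRNA also gave 1. With blank subtraction and median polish 2 were lower untreated, DGKI was at 0.76 untreated and 0.40 with EPA, and DGKE was at -0.56 for EPA minus untreated. With median polish alone DGKI was at 0.58 and 0.11, and for EPA minus untreated DGKE was at -0.23, DGKG at 0.0213, DGKQ at 0.15 and DGKZ at 0.40. Against the plate row 3 were lower with EPA, DGKI was at 0.86 untreated and 0.64 with EPA, and for EPA minus untreated DGKE was at -0.0039, DGKQ at 0.41 and DGKZ at 0.57. Without edge wells DGKG was at 0.0366 and DGKZ at 0.0213 for EPA minus untreated. At a threshold of 0.01, 1 member was higher untreated. The cause of these shifts was not tested.

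With 1 replicate left out, the members higher untreated numbered 1 to 2 (1 without untreated 1 or untreated 2). For EPA minus untreated, 0 to 1 were higher (DGKB without EPA 5) and 0 to 1 lower (DGKI without untreated 1, DGKA without EPA 6). The EPA minus untreated value of DGKG ranged from -0.10 to 0.13 and that of DGKZ from -0.31 to 0.24.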
